A study of Mus musculus with 9 samples.

Results

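Levels of 9 genes of vitamin D and retinoid metabolism and signaling were followed in 4T1 cells, a mouse mammary carcinoma line, out of the 24421 genes in the count table. The genes are Cyp24a1, Vdr, Rdh10, Dhrs3, Aldh1a1, Aldh1a3, Crabp2, Rarb and Rarg. They were chosen by name with their levels across the 3 culture conditions known, so their values are given as a description, and the number of them past a threshold is given only beside the share of all genes. RNA was sequenced from 3 libraries of cells on a soft-agar base with no added palmitate (3D no palmitate), 3 libraries of the same cultures with 75 µM palmitate (3D palmitate) and 3 libraries of monolayers with 75 µM palmitate (2D palmitate), each after 5 days. Cultures with no added palmitate received the albumin and ethanol carrier, according to the study's methods, and all cultures grew in RPMI with fetal bovine serum. Monolayers lacking added palmitate were not analysed here, so culture format was compared only in the presence of palmitate. All libraries come from 1 cell line. The labels do not say that the replicates are separate cultures, so p-values measure only the spread between these libraries, which may be technical.

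Vitamin D and vitamin A signal in a similar way. Each is turned by enzymes into an active hormone, calcitriol or retinoic acid, that binds a nuclear receptor paired with a retinoid X receptor (RXR) on DNA, and each signal is ended by a cytochrome P450 enzyme that breaks the hormone down. Cyp24a1 is that enzyme for calcitriol and Vdr encodes its receptor. Rdh10 oxidizes retinol to retinal, Dhrs3 reduces retinal back to retinol, Aldh1a1 and Aldh1a3 oxidize retinal to retinoic acid, Crabp2 carries retinoic acid to the nucleus, and Rarb and Rarg encode its receptors. Cyp24a1, Dhrs3 and Rarb are known to be induced by the hormones themselves in many cells.

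The total count per library ranged from 6595514 to 31177756, and the smallest library was replicate 3 of 3D palmitate. The ribosomal RNA precursor Rn45s took 1.77% to 2.77% of counts in 3D no palmitate, 1.81% to 5.38% in 3D palmitate and 2.46% to 3.49% in 2D palmitate. The summed level of 6 epithelial markers was 4905.1 to 4958.9 CPM, or counts per 1000000 scaled by TMM, in 3D no palmitate, 4848.3 to 5091.9 CPM in 3D palmitate and 3826.0 to 4140.8 CPM in 2D palmitate, so that it moved with culture format. Of 4 fibroblast markers only Pdgfra passed the filter on low counts. The summed fibroblast level, nearly all Pdgfra, was 90.7 to 110.4 CPM over the 3D libraries and 29.6 to 31.2 CPM in 2D, whereas Lum was at 0 in every library and Dcn and Pdgfrb were at most 0.0827 and 0.0646 CPM. The 4 leukocyte markers summed to at most 0.613 CPM with Cd3e at 0, and the 3 endothelial markers to at most 0.579 CPM. The part of the markers' shift in the differences given below was not tested.

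The receptors bind DNA at pairs of 6-base words, or hexamers, arranged as direct repeats. The promoter table of RefSeq (GRCm38.p6) held a window for 5 of the 9 genes, namely Vdr, Rarb, Rarg, Dhrs3 and Aldh1a1. Cyp24a1, Rdh10, Aldh1a3 and Crabp2 are not in it. Shown are the 250 bases before a transcription start of each of the 3 receptor genes, from -250 to -1, read 5′ to 3′ on the gene's strand, because these windows carry the words that the receptors themselves recognize. Capitals mark each match to the consensus word AGGTCA, its common variant GGGTCA, or the further variants AGTTCA and, likewise taken from known response elements, GGTTCA. Where a match is on the opposite strand the capitals show the reverse complement.
Rarb, chr14:16575477-16575726, minus strand: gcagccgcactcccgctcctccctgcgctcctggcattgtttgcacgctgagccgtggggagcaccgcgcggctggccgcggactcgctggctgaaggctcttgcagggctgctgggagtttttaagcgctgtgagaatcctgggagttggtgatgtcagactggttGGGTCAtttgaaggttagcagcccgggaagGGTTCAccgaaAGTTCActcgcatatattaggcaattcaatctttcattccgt
Vdr, chr15:97908297-97908546, minus strand: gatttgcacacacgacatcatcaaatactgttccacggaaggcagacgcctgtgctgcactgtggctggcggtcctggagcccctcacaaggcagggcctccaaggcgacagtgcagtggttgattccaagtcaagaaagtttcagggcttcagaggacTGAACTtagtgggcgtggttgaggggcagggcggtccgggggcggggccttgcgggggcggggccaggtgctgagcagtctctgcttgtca
Rarg, chr15:102257523-102257772, minus strand: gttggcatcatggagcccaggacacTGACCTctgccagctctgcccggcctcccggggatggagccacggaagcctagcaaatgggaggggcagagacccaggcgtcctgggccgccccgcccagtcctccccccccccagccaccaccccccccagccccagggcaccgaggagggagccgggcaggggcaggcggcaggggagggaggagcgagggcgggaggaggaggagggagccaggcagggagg
The Rarb promoter held 3 hexamers, and the last 2 form a direct repeat spaced by 5 bases, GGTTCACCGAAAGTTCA, at -53 to -37. This is the known retinoic acid response element of Rarb, and as its words are among those searched for, finding it is no independent result. Over whole windows of 250 bases before to 50 bases after the start, such a repeat was present in 0.0974% of the 32851 promoters in the table, and at least 1 hexamer on either strand in 43.7%. Vdr had 1 hexamer, on the opposite strand, at -91 to -86. Rarg had 1 at -225 to -220, also on the opposite strand, in the window shown and none in its other window (chr15:102246451-102246750). In 1 of its 2 windows Aldh1a1 had 1 at -49 to -44, and the Dhrs3 windows had none. Repeats spaced by 2 bases and by 3 bases, the latter the classical arrangement for the vitamin D receptor, occurred in 0.268% and 0.0396% of promoters and in none of the windows of these genes.

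Cyp24a1 and Vdr, the vitamin D genes among the 9, were much higher in 3D than in 2D cultures. Cyp24a1 lies at chr2:170482708-170497145 on the minus strand of GRCm38. Its level was 14.2, 14.0 and 15.9 CPM in the 3 libraries of 3D no palmitate, 12.3, 11.4 and 15.5 CPM in 3D palmitate, and 0.248, 0.545 and 0.401 CPM in 2D palmitate. Every 3D library was thus far above every 2D library, where the gene had only 3, 17 and 9 counts. In bulk RNA, more cells that express a gene and more RNA per cell cannot be told apart. The means were 13.1 ± 2.14 CPM (SD, n = 3) in 3D palmitate and 0.398 ± 0.148 CPM (SD, n = 3) in 2D palmitate, a log2 fold change of 4.83 (SE 0.206) or 28.5-fold. Of the 12575 genes that passed the filter, 54 had a larger log2 fold change in this direction. As Cyp24a1 was chosen with these values known and passed the filter only through the 3D libraries, this place is a description only. With palmitate in 3D the libraries of both groups overlapped, the mean without palmitate being 14.7 ± 1.06 CPM (SD, n = 3), and the log2 fold change was -0.21 (SE 0.122).

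Vdr, at chr15:97854425-97910630 on the minus strand, followed the same order between formats. It was measured at 39.7, 46.3 and 40.9 CPM in 3D no palmitate, 31.5, 31.9 and 33.2 CPM in 3D palmitate, and 6.62, 7.88 and 6.06 CPM in 2D palmitate. The 3 groups did not overlap, with 3D no palmitate highest and 2D palmitate lowest. Between 3D and 2D the log2 fold change was 2.21 (SE 0.106), or 4.61-fold, from means of 32.2 ± 0.89 and 6.85 ± 0.933 CPM (SD, n = 3 each). With palmitate in 3D the mean went from 42.3 ± 3.5 CPM (SD, n = 3) to 32.2 CPM, a log2 fold change of -0.40 (SE 0.0899). The 3D palmitate libraries of Vdr lay within a narrow range, and its 2D counts were never under 80 per library.

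**Figure D1:**
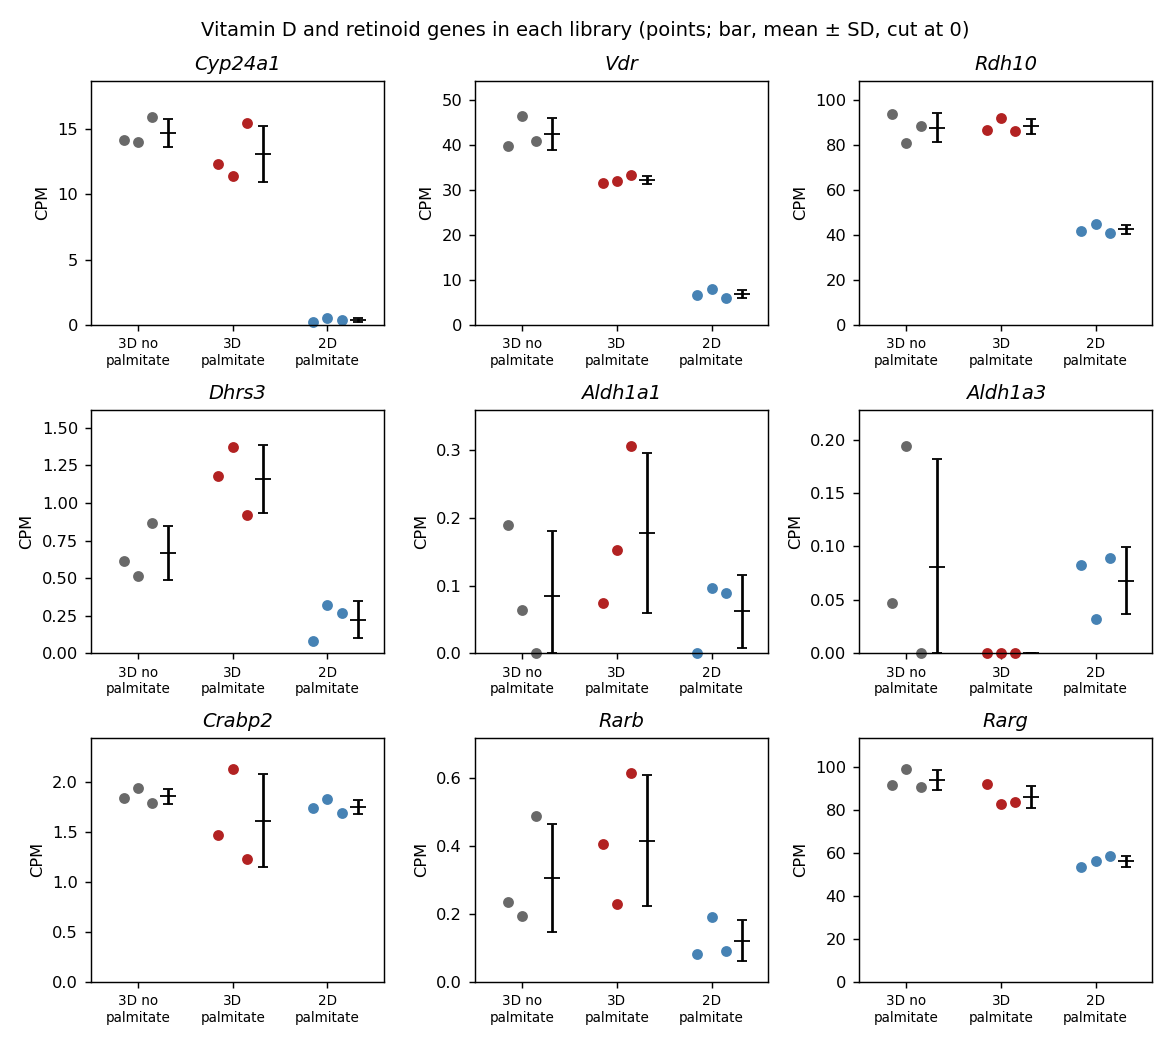
Level of the 9 genes in CPM (y axis, linear from 0, scaled for each gene) in the 9 libraries, grouped by condition on the x axis. Each point is 1 library and the bar is the mean ± SD of 3, cut at 0. Cyp24a1 and Vdr are high in all 6 3D libraries and low in the 3 of 2D, whereas Crabp2 sits near 2 CPM throughout and Aldh1a1 and Aldh1a3 have few or no counts.

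Of the enzymes that interconvert retinol and retinal, Rdh10 was abundant and Dhrs3 scarce. Rdh10 (chr1:16105774-16133734, plus strand) had 93.8, 81.0 and 88.2 CPM in 3D no palmitate, 86.5, 92.0 and 86.1 CPM in 3D palmitate, and 41.9, 44.7 and 40.9 CPM in 2D palmitate. All 3D libraries were well above all 2D libraries, and the 3D groups overlapped. The log2 fold changes were 1.05 (SE 0.0713) for 3D over 2D and 0.01 (SE 0.069) for palmitate in 3D. Dhrs3 (chr4:144892827-144928209, plus strand) had 0.614, 0.517 and 0.868 CPM in 3D no palmitate, 1.18, 1.37 and 0.919 CPM in 3D palmitate, and 0.0827, 0.32 and 0.267 CPM in 2D palmitate. No groups of Dhrs3 overlapped, and 3D palmitate was highest, but the levels rest on 1 to 32 counts per library. Its log2 fold change was 2.19 (SE 0.373) for 3D over 2D and 0.82 (SE 0.319) for palmitate in 3D. Per kilobase of the longest annotated transcript, the level of Rdh10 was a median of 99.5 times that of Dhrs3 in 3D no palmitate, 47.8 times in 3D palmitate and 99.7 times in 2D palmitate. The libraries ranged from 66.2 to 102.1, 43.8 to 61.0 and 90.8 to 330.3 in the same order, the widest range being that of 2D palmitate.

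The enzymes of the next step, from retinal to retinoic acid, were almost not detected. Aldh1a1 (chr19:20492715-20643465, plus strand) had 4, 1 and 0 counts in 3D no palmitate, 2, 2 and 2 in 3D palmitate, and 0, 3 and 2 in 2D palmitate. Aldh1a3 (chr7:66390890-66427517, minus strand) had 1, 3 and 0 counts in 3D no palmitate, 0 in each library of 3D palmitate, and 1, 1 and 2 in 2D palmitate. Neither passed the filter. A count of 0 allows a level of up to 3 counts, which is 0.0961 CPM in the deepest library and 0.459 CPM in the shallowest, and every value except the 4 counts of Aldh1a1 lies at or under that floor, which covers counting error only. A difference between conditions was therefore not detectable at this depth. The other 3 retinal dehydrogenases of the list did not pass the filter either. Aldh1a2 and Aldh1a7 had at most 4 and 2 counts in any library, and Aldh8a1, named after its values were seen, had 1 to 6 counts in each.

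Crabp2 (chr3:87948666-87953376, plus strand) showed no order between the conditions. It had 1.84, 1.94 and 1.79 CPM in 3D no palmitate, 1.47, 2.13 and 1.23 CPM in 3D palmitate, and 1.74, 1.83 and 1.69 CPM in 2D palmitate. The groups overlapped in both comparisons. The log2 fold change was -0.11 (SE 0.217) for 3D over 2D, a sign that turned to 0.11 with each library's GC content and length trend removed, and -0.18 (SE 0.221) for palmitate in 3D.

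Of the receptors of retinoic acid, Rarg was abundant and Rarb close to the detection limit. Rarg (chr15:102234938-102257517, minus strand) had 91.4, 99.0 and 90.6 CPM in 3D no palmitate, 91.8, 82.7 and 83.6 CPM in 3D palmitate, and 53.4, 56.3 and 58.3 CPM in 2D palmitate. Its 3D libraries were all above its 2D libraries, with a log2 fold change of 0.62 (SE 0.0684), and the 3D groups overlapped at -0.12 (SE 0.0672). Rarb (chr14:16430839-16819156, minus strand), whose promoter with the response element is shown above, had only 5, 3 and 9 counts in 3D no palmitate, 11, 3 and 4 in 3D palmitate, and 1, 6 and 2 in 2D palmitate, and did not pass the filter. As CPM these counts are 0.228 to 0.613 in 3D palmitate and 0.0827 to 0.192 in 2D palmitate, so that these groups did not overlap, but 4 of the 6 libraries hold 4 counts or fewer. Per kilobase, Rarg was a median of 407.3, 238.7 and 679.9 times as abundant as Rarb in 3D no palmitate, 3D palmitate and 2D palmitate. The libraries ranged from 195.4 to 537.5, 143.7 to 381.7 and 308.0 to 688.9 in the same order. These ranges overlap and rest on the few Rarb counts, so no difference between conditions is read from them.

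Annotated genes on the other strand overlap the loci of Cyp24a1, Rarb and Aldh1a1. The strand setting of the authors' counting is not given in the sources used here. At Aldh1a1 these genes are C730002L08Rik and Gm6684, and at Rarb they are Top2b and Gm48162. Shared exon bases were measured only for Pfdn4 and Top2b. Cyp24a1 shares 83 of its 3560 exon bases, or 2.33%, with Pfdn4. The level of Pfdn4 was 31.9 ± 2.34 CPM in 3D palmitate and 52.9 ± 1.14 CPM in 2D palmitate (SD, n = 3 each), a log2 fold change of -0.74 (SE 0.0742), opposite in sign to Cyp24a1. Rarb shares 1793 of its 5265 exon bases, or 34.1%, with Top2b, which had 1576 to 6319 counts per library against the 1 to 11 of Rarb, so the few Rarb counts are uncertain. Pfdn4 and Top2b were named after their values were seen.

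In order of level per kilobase, Rarg was first in each condition and Rdh10 the second, at 29.1 ± 1.71 and 24.6 ± 0.922 CPM per kilobase in 3D palmitate (SD, n = 3 each). Vdr came next in both 3D conditions, at 9.68 ± 0.801 without and 7.37 ± 0.204 with palmitate, followed by Cyp24a1 at 4.12 ± 0.298 and 3.67 ± 0.601 and Crabp2 at 1.99 ± 0.0809 and 1.73 ± 0.501. In 2D palmitate the order of these changed. Crabp2 was in place 3 at 1.88 ± 0.0727 CPM per kilobase, above Vdr at 1.57 ± 0.213 and Cyp24a1 at 0.112 ± 0.0416 (SD, n = 3 each). In both 3D conditions neighbours from Rarg down to Rarb had no overlap between libraries, whereas Aldh1a1 overlapped with Rarb above it. In 2D palmitate no gene from Dhrs3 downwards was separated from the one above it.

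Over the 6 genes that passed the filter, 5 were higher in 3D than in 2D at an adjusted p under 0.05 by the quasi-likelihood test of edgeR with Benjamini-Hochberg correction, and their groups did not overlap, the exception in both respects being Crabp2. Among all genes tested 68.3% passed in this comparison, 34.5% higher and 33.9% lower in 3D, and 69.4% had groups with no overlap. The median log2 fold change of the 6 was 1.62, against 0.00833 over all genes. With palmitate in 3D, 1 of the 6, Vdr, passed, against 2.19% of all genes, and 2, Vdr and Dhrs3, had groups with no overlap, against 18.6% of all genes. The genes were selected on these libraries, and Cyp24a1 and Dhrs3 passed the filter only through the 3D libraries, so nothing is read from these counts. The call of Vdr was kept in 7 of 15 alternative analyses. It was lost in 5 of the 6 that left out a library, the exception being replicate 3 of 3D palmitate, and its log2 fold change ranged from -0.44 to -0.33. For 3D over 2D, leaving out a library gave 4.69 to 5.16 for Cyp24a1, 2.11 to 2.35 for Vdr, 1.97 to 2.52 for Dhrs3, 1.02 to 1.09 for Rdh10 and 0.56 to 0.65 for Rarg. Both comparisons share the 3D palmitate libraries and are not independent.

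**Figure D2:**
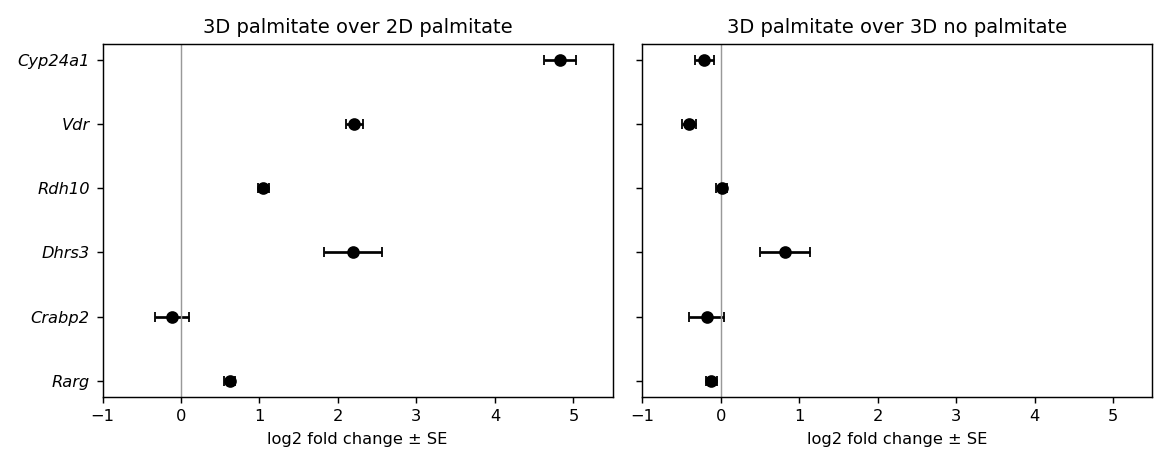
Log2 fold change ± SE (x axis) from the fit of all 9 libraries for the 6 genes that passed the filter on low counts, for 3D over 2D with palmitate (left) and for palmitate in 3D (right). On the left Cyp24a1 is at 4.83 and Crabp2 at -0.11. On the right the values run from -0.40 for Vdr to 0.82 for Dhrs3.

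The gene whose pattern over the 9 libraries was most like that of each of the 6 was taken as that with the smallest root mean square difference of centred log2 CPM among the 12575 tested. It was Lama3 for Vdr (0.0953), Pigg for Rdh10 (0.0574), Zfp523 for Rarg (0.0485), 1300002E11Rik for Crabp2 (0.116), Lilr4b for Dhrs3 (0.241) and Ugt1a6a for Cyp24a1 (0.168). Nearest in pattern did not mean equal in fold change. For 3D over 2D, Ugt1a6a had a log2 fold change of 6.54 against 4.83 for Cyp24a1, and Lilr4b 2.74 against 2.19 for Dhrs3. The other pairs lay closer. The counts of Ugt1a6a are uncertain because the Ugt1a genes share exons.

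The other genes of both pathways were followed as a list of 97 that holds none of the 9, of which 48 passed the filter. The list was chosen with earlier results of these data known, so its counts are a description. In 3D against 2D, 40 of the 48 were called, which is 83.3% against 68.3% of all genes, and the 48 had a median log2 fold change of 0.22. Of the 40, 24 were higher and 16 lower in 3D, against 34.5% higher and 33.9% lower of all genes. These counts include Cldn2, Cyp26b1 and Adh1, which passed the filter only or mainly through the format where they are higher. No enrichment is read from these counts. With the trend of GC content and length removed, 37 were called, 18 higher and 19 lower, so the balance of directions depends on this step. Requiring at least 10 counts in every library drops genes scarce in any library, so fewer than 48 were then tested, and 36 were called. Every adjusted p in this part comes from edgeR's quasi-likelihood test over all genes. Apart from the genes fixed by name, those named below for 3D against 2D were picked on their values in this same comparison. Their adjusted p is therefore a description, not a test of a gene chosen beforehand.

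On the vitamin D side, Cyp27b1, which makes calcitriol, was scarce at 1.06 ± 0.196 CPM in 3D palmitate and 1.2 ± 0.0758 CPM in 2D palmitate (SD, n = 3 each). On the log2 scale the difference was -0.08 (adjusted p = 0.841). Cyp2r1, which makes its substrate, had 0 counts in every library. Of the 19 genes listed as responding to vitamin D in other cells, 7 passed the filter, and 5 were higher and 2 lower in 3D. Of all genes 34.5% were higher and 33.9% lower. The 2 lower were Cldn12, at a log2 fold change of -0.65, and Cd14, at -0.49, both named after their values were seen. Spp1, which encodes the secreted protein osteopontin, rose from 577.6 ± 22.3 CPM in 2D to 5056.1 ± 597.0 CPM in 3D (SD, n = 3 each), a log2 fold change of 3.13 (adjusted p = 1.18e-12). Cdkn1a, the cell cycle inhibitor p21, rose by 2.20 (adjusted p = 4.66e-12). The tight junction gene Cldn2 had 52 counts in 3D palmitate and 1, 1 and 0 in the 2D libraries, a ratio of 36.5 with a 95% exact interval of 9.6 to 309.2 for counting error only. It passed the filter only through the 3D libraries, so no test of it is given. Cldn2 is among the 5 counted as higher, and its place there is not read.

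Of 14 partners and cofactors shared by the receptors, 13 passed the filter, with 9 higher and 2 lower in 3D. Among all genes tested 34.5% were higher and 33.9% lower. With the GC content and length trend removed, 4 were higher and 6 lower, so the direction of this group rests on that step. Rxra, the RXR partner of both receptor families, rose from 46.8 ± 4.07 to 84.8 ± 6.32 CPM (SD, n = 3 each), or 0.86 on the log2 scale (adjusted p = 2.31e-07). Rxrb fell by 0.20 on the log2 scale (adjusted p = 0.0255), a call lost in 4 of 15 alternative analyses, namely with only the compared groups, with the Rn45s share as covariate, without replicate 2 of 3D palmitate and without replicate 3 of 2D palmitate (adjusted p = 0.0524, 0.0529, 0.0628 and 0.132). The corepressor Nrip1, which is itself a retinoic acid target, rose by 2.40 (adjusted p = 8.89e-09).

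On the retinoid side, genes of the steps around the 9 moved in both directions. Of 17 other retinol dehydrogenases and retinal reductases, 10 passed the filter, with 3 higher and 5 lower in 3D. Among all genes tested 34.5% were higher and 33.9% lower. Adh1 had the lowest log2 fold change, -1.26, from 14, 12 and 2 counts in 3D palmitate and 13, 39 and 43 in 2D palmitate. It passed the filter mainly through the 2D libraries, and no test of it is given. Its place among the 5 counted as lower is not read. Next came Adh5 at -0.67 (adjusted p = 2.08e-07) and Rdh13 at -0.65 (adjusted p = 1.89e-05). The retinol receptor Stra6 and the retinol esterifying enzyme Lrat had at most 3 and 1 counts in any library. Scarb1, a receptor that takes up lipoprotein lipids and carotenoids, fell by 0.67 on the log2 scale (adjusted p = 4.62e-06). Cyp26b1, which breaks down retinoic acid, was at 0.298 ± 0.126 CPM in 2D palmitate and 2.07 ± 0.749 CPM in 3D palmitate (SD, n = 3 each), a difference of 2.72 on the log2 scale. Its counts in 2D were 2, 13 and 7, and as it passed the filter only through the 3D libraries, no test of it is given. Cyp26a1 had at most 7 counts.

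Among carriers and receptors of retinoic acid, Fabp5, which carries it to another nuclear receptor, went from 83.5 ± 4.76 CPM in 2D palmitate to 26.2 ± 2.87 CPM in 3D palmitate (SD, n = 3 each), a log2 fold change of -1.66 (adjusted p = 3.02e-10). Crabp1 had 0 counts in every library. Rara was measured at 57.9 ± 9.66 CPM in 3D palmitate and 56.9 ± 3.49 CPM in 2D palmitate (SD, n = 3 each), a log2 fold change of 0.05 (adjusted p = 0.638). Of 14 genes listed as responding to retinoic acid, 7 passed the filter, and 4 were higher and 3 lower in 3D. The shares of all genes tested were 34.5% higher and 33.9% lower. Meis1 rose by 1.79 (adjusted p = 1.1e-09) and Bhlhe40 fell by 1.08 on the log2 scale (adjusted p = 2.22e-09).

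**Figure D3:**
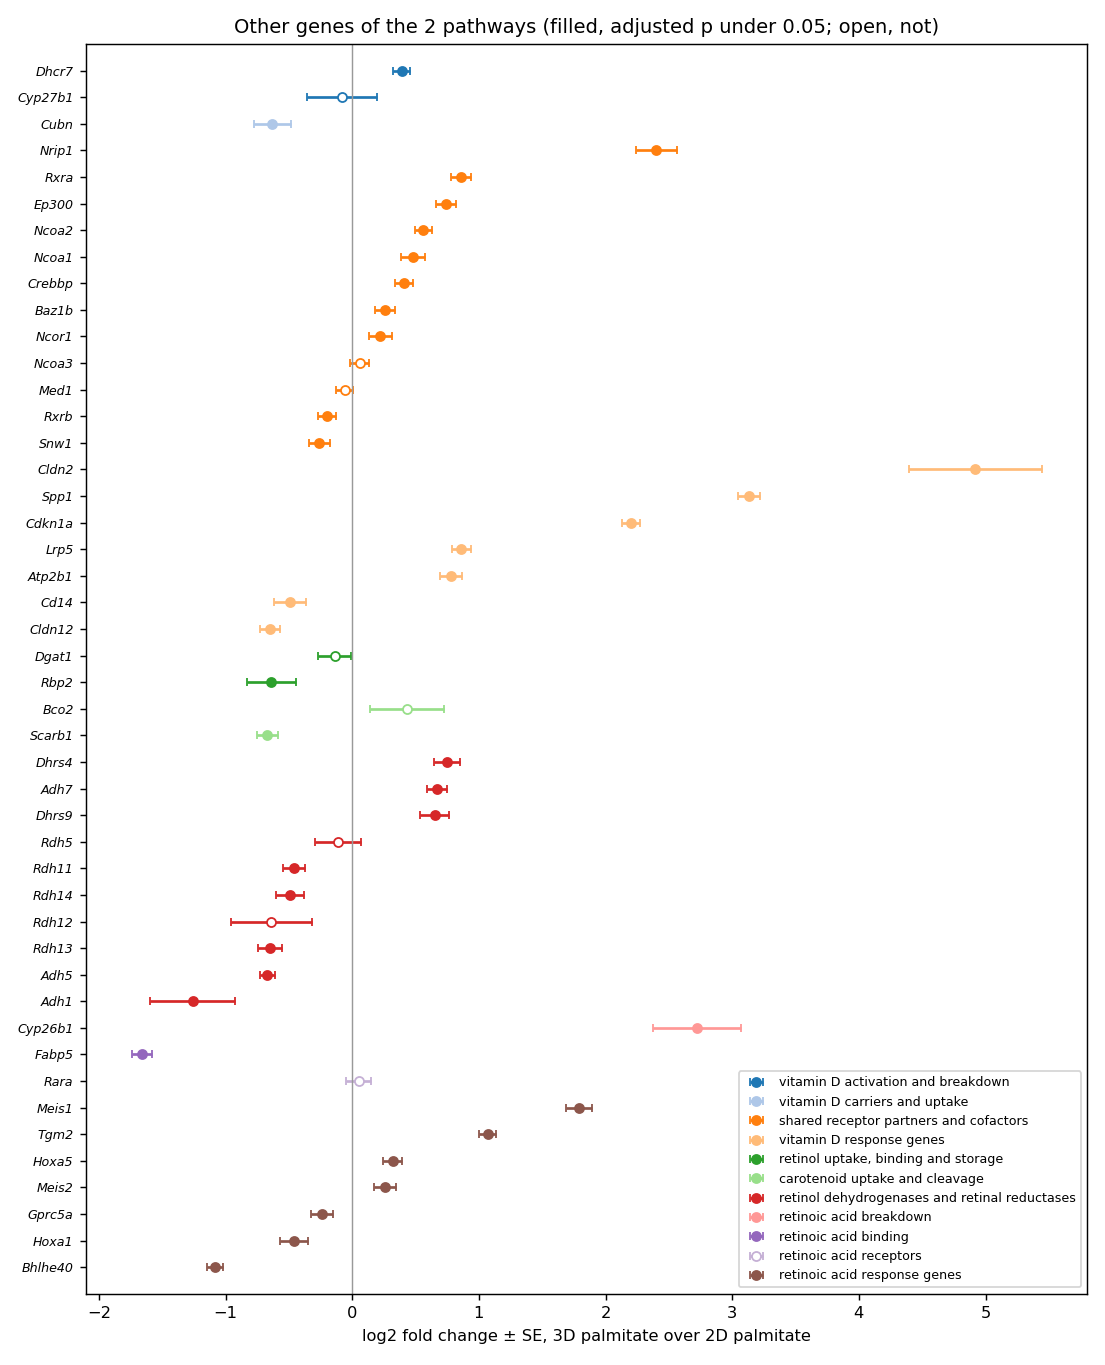
Log2 fold change ± SE of 3D over 2D with palmitate (x axis) for 46 of the 48 tested genes of both pathways other than the 9, grouped by role in color and ordered within each role. Filled points passed an adjusted p of 0.05 and open points did not. The fill of Cldn2, Cyp26b1 and Adh1 is not read, as they passed the filter only or mainly through the format where they are higher. Cldn2, Spp1 and Cyp26b1 lie farthest to the right and Fabp5 farthest to the left.

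With palmitate in 3D, edgeR called 0 of the 48 genes, with 8 at an unadjusted p under 0.05, against 2.19% of all genes called. DESeq2 called 3, namely Adh7, Bhlhe40 and Gprc5a. The last of these, a retinoic acid induced receptor, was at 61.1 ± 7.19 CPM with and 48.4 ± 2.63 CPM without palmitate (SD, n = 3 each), a log2 fold change of 0.36 (adjusted p = 0.0527 in edgeR). Cyp27b1 was at 0.88 (SE 0.322, adjusted p = 0.178 in edgeR) from 14, 5 and 15 counts without and 35, 13 and 6 counts with palmitate. Without replicate 3 of 3D palmitate, the smallest library, edgeR called 8 of the 48. In that fit 1901 genes in all were called, against 275 in the main fit, so nothing is read from the 8. Nothing is read from the 3 calls of DESeq2 either. Adh7 and Gprc5a were named after their values were seen.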

How the data were processed

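Poly(A) RNA of 9 libraries of 4T1 cells was sequenced, and the file the authors deposited gives raw read counts for each gene with no normalization. According to the study's methods and the submitters' processing notes, reads were checked with FastQC (version 0.11.9), aligned to GRCm38 with HISAT2 (version 2.1.0) and counted with HTSeq. The annotation release and strand setting are not given in the sources used here, so reads of overlapping genes could have been assigned to either. Groups came from the sample labels, and 0 columns were left unmapped.

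The analysis used edgeR 4.0.16 under R 4.3.3. The filter on low counts was filterByExpr, which left 12575 of 24421 genes. TMM scaling was applied, and 1 quasi-likelihood fit of the 3 conditions covered all 9 libraries, with Benjamini-Hochberg adjustment over all genes tested and a threshold of 0.05. Total counts of 6595514 to 31177756 set the precision of scarce genes. Levels per kilobase used the longest transcript of GENCODE M21. No libraries of a condition agreed within sampling noise. The procedure was tested on simulated data.

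The 9 genes and the gene lists were chosen with earlier results of these data known. Genes named were the 9, 13 pathway genes fixed by name, any pathway gene called with palmitate, the 6 highest and 6 lowest called and not overlapping for 3D against 2D, and the gene nearest in pattern to each of the 6 of the 9 that passed the filter. Alternatives were RLE scaling, library size alone, no filter, a minimum of 10 counts per library throughout, the compared groups only, a replicate block, DESeq2 1.42.0, removal of the trend with GC content and length (natural splines with 4 degrees of freedom), the Rn45s share as covariate, and each library left out. Counts over the list include 2 pathway genes whose own values are not reported here.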

Additional observations from a re-analysis of the deposited data

How the results depend on the processing

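Between 3D and 2D cultures the number of genes called (8594) and of other pathway genes called (40 of 48) stayed within 1.5 times under every alternative run. With the trend of GC content and length removed, the share of genes higher in 3D was 42.4% in place of 50.4%, and that of the called pathway genes 48.6% in place of 60.0%. Under that setting Ncor1 was at -0.25, Crebbp at -0.08 and Baz1b at -0.12 on the log2 scale, against positive values without it, and Vdr was at 2.00 and Rdh10 at 0.98. The counts for palmitate in 3D moved more. In place of 275 genes, 617 were called with no filter on low counts, 77 with only the compared groups, 938 after removal of the GC and length trend, 44 with the Rn45s share as covariate, and 71 to 1901 with 1 library left out, the highest without replicate 3 of 3D palmitate. In place of 0 other pathway genes, 2 were called with no filter, 3 with DESeq2, 5 after removal of that trend, and 0 to 8 with 1 library left out. The share of genes higher with palmitate, 62.9%, was 46.7% (106 higher, 121 lower) with library size alone and 52.7% (325 and 292) with no filter. The causes of these shifts were not tested. Libraries with the same replicate number deviated from their group means with correlations of -0.24 to 0.15 (9 pairs), against -0.17 to 0.28 for other numbers (18 pairs). No sign that the numbers pair the libraries was seen, but groups of 3 libraries cannot exclude it. With the replicate block in the fit, 8323 and 111 genes and 40 and 0 other pathway genes were called. Depth limits Aldh1a1, Aldh1a3 and Rarb, which had at most 11 counts in any library.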
